A study of Mus musculus with 16 samples.

Results

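The endoplasmic reticulum (ER) unfolded protein response genes described here are Hspa5, Hsp90b1, Calr, Pdia4, Creld2, Sdf2l1, Dnajb9, Herpud1, Xbp1 and Atf6. They were chosen by gene symbol, with earlier results of these data known. All 10 were found among the 14138 genes of a first count table and among the 17831 genes of a second. The first table holds RNA sequencing counts of 5 wild type mouse hearts and 5 CPT2H-KO hearts. In CPT2H-KO mice carnitine palmitoyltransferase 2, needed to burn long-chain fatty acids in mitochondria, was deleted in the heart. The second holds 3 hearts with that deletion alone, called CPT2 single KO here, and 3 CPT2/USP30 double KO hearts. The latter also lack cardiac USP30, a deubiquitinase that opposes the removal of mitochondria by mitophagy. Every heart of the second table therefore carries the CPT2 deletion, and neither table holds both wild type and double KO hearts. USP30 was deleted with Cre driven from the Myh6 promoter, which is active in cardiomyocytes. The driver used for CPT2, and the age and sex of the animals, are not stated in the labels. Groups were compared within a table only.

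The unfolded protein response adjusts the folding capacity of the ER to its load of secretory and membrane proteins. It is sensed by the membrane proteins IRE1 (Ern1), PERK (Eif2ak3) and ATF6. Activated IRE1 splices Xbp1 mRNA and so yields the active XBP1 transcription factor, ATF6 is cut in the Golgi to release a transcription factor, and PERK phosphorylates eIF2α, which slows translation and favours translation of ATF4. ATF6 and XBP1 raise chaperones, folding enzymes and degradation factors, partly through ER stress response elements in their promoters. In cardiomyocytes the ER is continuous with the sarcoplasmic reticulum, the calcium store that drives contraction. Gene counts do not show the splicing of Xbp1, the cleavage of ATF6 or the activity of PERK.

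Promoters are shown first, because the response elements set apart some of these genes by sequence. RefSeq windows from 250 bases before to 50 bases after the start (GRCm38.p6, the mm10 build) matched 9 of the 10 genes, all but Atf6. Both strands were searched for the ER stress response element ERSE (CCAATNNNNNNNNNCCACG), for ERSE-II (ATTGG, any base, then CCACG) and for the core of the unfolded protein response element (UPRE core, TGACGTG). At least 1 of these was present in the windows of 5 of the 9 genes, which are printed 5′ to 3′ on the gene's strand with the fixed letters of each match in capitals.
Hspa5 (chr2:34771840-34772139, plus strand): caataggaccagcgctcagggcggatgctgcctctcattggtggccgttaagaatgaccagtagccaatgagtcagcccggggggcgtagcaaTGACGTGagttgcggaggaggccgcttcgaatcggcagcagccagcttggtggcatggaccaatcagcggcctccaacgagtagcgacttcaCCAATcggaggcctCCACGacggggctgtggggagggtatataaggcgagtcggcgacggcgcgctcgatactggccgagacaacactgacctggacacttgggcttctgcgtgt
Hsp90b1 (chr10:86705395-86705694, minus strand): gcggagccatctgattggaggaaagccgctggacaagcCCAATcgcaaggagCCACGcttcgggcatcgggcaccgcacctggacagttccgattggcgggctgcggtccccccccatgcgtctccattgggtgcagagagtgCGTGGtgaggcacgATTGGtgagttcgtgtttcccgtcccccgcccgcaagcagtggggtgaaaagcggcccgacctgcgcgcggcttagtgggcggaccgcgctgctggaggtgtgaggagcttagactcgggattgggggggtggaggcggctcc
Calr (chr8:84846882-84847181, minus strand): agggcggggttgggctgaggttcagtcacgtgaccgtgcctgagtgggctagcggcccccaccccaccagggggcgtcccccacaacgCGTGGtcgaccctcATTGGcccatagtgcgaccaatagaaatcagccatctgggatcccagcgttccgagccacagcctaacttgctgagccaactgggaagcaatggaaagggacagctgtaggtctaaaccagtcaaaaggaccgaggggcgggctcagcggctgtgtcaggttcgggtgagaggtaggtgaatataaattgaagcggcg
Creld2 (chr15:88819396-88819695, plus strand): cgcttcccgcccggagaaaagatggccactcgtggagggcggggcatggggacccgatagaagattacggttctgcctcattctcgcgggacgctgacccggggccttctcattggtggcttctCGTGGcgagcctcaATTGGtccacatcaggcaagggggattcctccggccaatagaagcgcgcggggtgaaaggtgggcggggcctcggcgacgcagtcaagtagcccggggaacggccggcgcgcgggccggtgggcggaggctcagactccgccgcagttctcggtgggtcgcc
Herpud1 (chr8:94386179-94386478, plus strand): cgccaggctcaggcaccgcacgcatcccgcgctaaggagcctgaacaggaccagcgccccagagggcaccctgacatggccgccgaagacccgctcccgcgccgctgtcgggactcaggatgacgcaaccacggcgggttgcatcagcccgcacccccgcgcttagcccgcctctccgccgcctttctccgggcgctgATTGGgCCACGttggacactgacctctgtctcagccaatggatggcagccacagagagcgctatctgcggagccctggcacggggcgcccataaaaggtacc

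ERSE matches lay in the windows of Hspa5, Hsp90b1, Calr and Creld2, 4 of the 9. Of all 32851 promoter windows in the table, 39 (0.119%) held an ERSE. The genes were chosen as members of a response that acts partly through this element. The share over all windows is therefore a description and not a test of enrichment. With the start counted as 0, the Hspa5 match spanned -65 to -47 on the gene's own strand, and a UPRE core stood upstream of it at -157 to -151. Hsp90b1 had an ERSE on its own strand at -212 to -194 and another on the opposite strand at -107 to -89, where the capitals read as the reverse complement. The Calr and Creld2 matches were on the opposite strand, at -162 to -144 and -126 to -108. Herpud1 held an ERSE-II at -52 to -42, an element present in 0.0365% of all windows. UPRE cores were more frequent, at 2.01% of windows, and 2.16% of windows held any of the motifs. None of these letters stood in the windows of Xbp1, Pdia4, Sdf2l1 or Dnajb9, and no matches overlapped each other. The Pdia4 window (chr6:47813463-47813762, minus strand) lies wholly upstream of the gene's start in GENCODE M21 (47813430). Its lack of a match therefore holds for the RefSeq start only. A match describes the letters of the window and is not a measurement of binding.

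**Figure D1:**
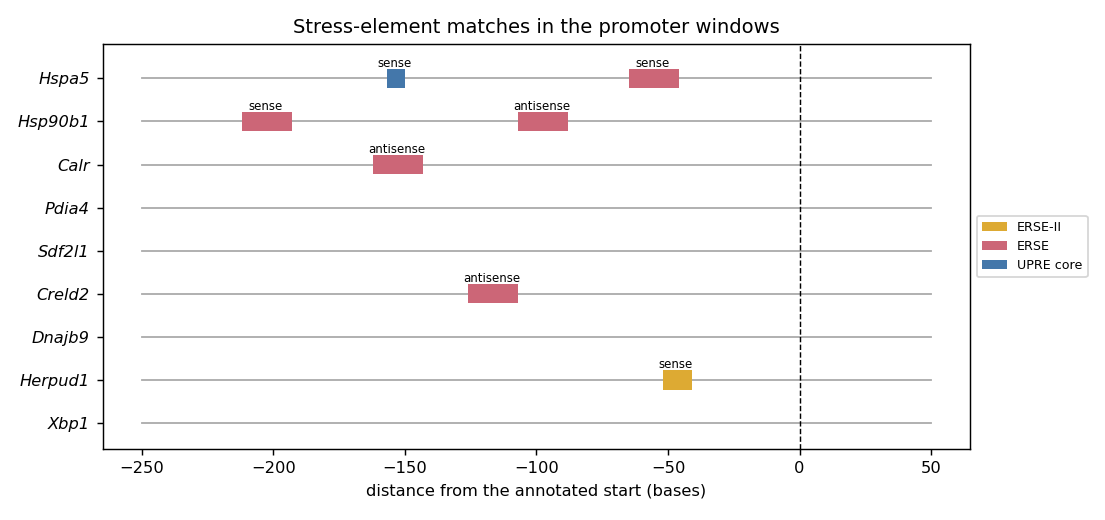
Positions of motif matches in the 9 promoter windows, in bases from the annotated start (dashed line); bars are matches coloured by motif and labelled by strand. Hspa5, Hsp90b1, Calr and Creld2 carry an ERSE, Herpud1 an ERSE-II, and the windows of Pdia4, Sdf2l1, Dnajb9 and Xbp1 none.

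Library totals were 54674422 to 132762776 counts in the first table and 11067969 to 13532716 in the second. Cpt2 was lower in every library labelled CPT2H-KO (30.4 to 44.9 CPM, counts scaled to the same library size) than in any wild type library (53.0 to 89.9 CPM). The log2 difference was -0.95 (SE 0.15, edgeR adjusted p = 9.71e-04). In the second table Cpt2 measured 164 to 182 CPM in single KO libraries and 166 to 189 CPM in double KO libraries. That table holds no wild type hearts, so the CPT2 deletion there rests on the labels. Usp30 measured 7.45 to 10.4 CPM in the double KO libraries and 18.5 to 22.8 CPM in the single KO libraries, a log2 difference of -1.16 (SE 0.18) that was not called (edgeR adjusted p = 0.147). The libraries also differed in ways that the genotypes do not state. Atrial transcripts were nearly missing from CPT2H-KO replicates 2, 3 and 4, with Myl7, the atrial myosin light chain, at 0.285 to 0.610 CPM. It stood at 14.1 and 144 CPM in replicates 1 and 5 and at 25.4 to 194 CPM in wild type hearts. In the second table Myl7 measured 0.0749 to 0.458 CPM in single KO hearts and 1.49 to 425 CPM in double KO hearts. Y-linked transcripts differed between libraries within the wild type, CPT2H-KO and single KO groups. In the second table single KO replicates 1 and 2 held them (summed 124 and 117 CPM). Single KO replicate 3 and every double KO heart nearly lacked them (0.581 to 0.911 CPM), so this difference partly follows the genotype. Mitochondrially encoded genes took 57.9% to 63.0% of wild type counts, 61.9% of those of CPT2H-KO replicate 2 and 67.7% to 68.8% of those of the other CPT2H-KO libraries. TMM factors were 1.03 to 1.20 in wild type libraries, 1.11 in CPT2H-KO replicate 2 and 0.807 to 0.895 in the other CPT2H-KO libraries. Without the mitochondrially encoded genes the same 7 of the 10 genes were called lower.

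Loss of CPT2 was accompanied by lower transcripts of the ER chaperones. In CPT2H-KO hearts 7 of the 10 unfolded protein response genes fell (Hspa5, Hsp90b1, Calr, Creld2, Sdf2l1, Herpud1 and Xbp1), none rose (0 at an unadjusted p below 0.05, and 0 with DESeq2), and Pdia4, Dnajb9 and Atf6 were not called. Here a gene is called at an edgeR adjusted p below 0.05 over all 14123 genes tested, and 17% of those genes fell while 16.7% rose. With the atrial covariate 3 of the 10 were called lower (Hspa5, Hsp90b1 and Calr), and 3 (Hspa5, Calr and Sdf2l1) with only the CPT2H-KO hearts that hold atrial transcripts. The median log2 fold change of the 10 genes was -0.46, beside -0.0073 over all genes tested. The groups did not overlap for 4 of the 10 genes (Hspa5, Hsp90b1, Calr and Creld2), with the CPT2H-KO hearts below every wild type heart. Of all genes tested, 13.2% were separated in that direction. The 4 genes that separated were also the 4 with an ERSE in the promoter window. That overlap was noticed after the values were known and was not tested. As RNA was taken from heart tissue and not from sorted cells, fewer cells of a type and less RNA per cell cannot be told apart. Atrial transcripts were nearly missing from CPT2H-KO replicates 2, 3 and 4, so these libraries may not cover the whole heart.

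**Figure D2:**
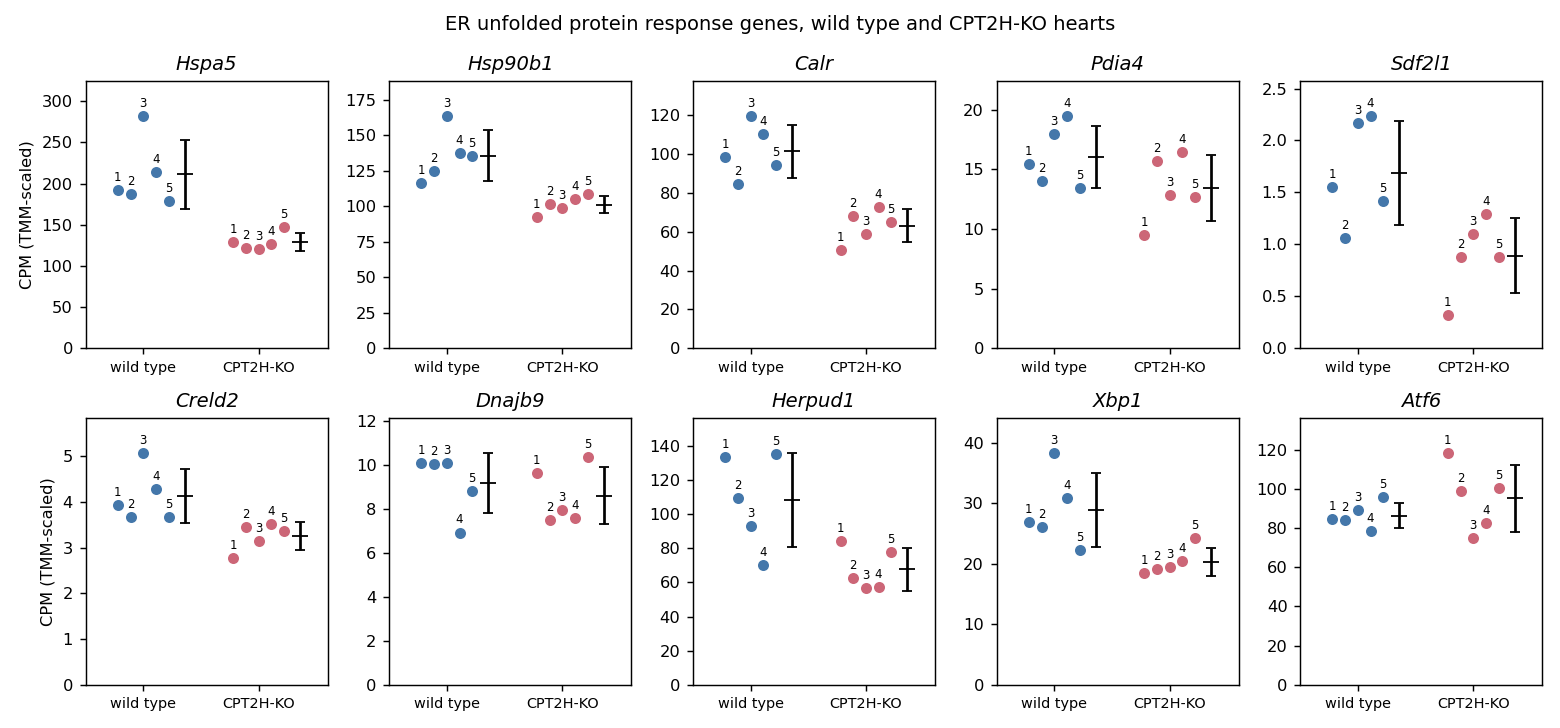
CPM of the 10 genes in wild type (blue) and CPT2H-KO (red) hearts, 1 point per library with its replicate number; black marks are mean ± SD (n = 5 each). All CPT2H-KO points lie below all wild type points for Hspa5, Hsp90b1, Calr and Creld2, and the groups overlap for the other genes.

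Among the luminal chaperones, Hspa5 (chr2:34771970-34777547, GENCODE M21) encodes BiP, the ER Hsp70 chaperone that binds unfolded chains and holds the stress sensors inactive. It measured 193, 188, 282, 215 and 179 CPM in wild type replicates 1 to 5, and 128, 122, 121, 127 and 148 CPM in the CPT2H-KO replicates. The lowest wild type heart thus lay above the highest CPT2H-KO heart, and wild type replicate 3 stood above the others. The group means were 211 ± 41.9 CPM and 129 ± 10.9 CPM (SD, n = 5 each), a log2 fold change of -0.71 (SE 0.12, edgeR adjusted p = 0.00152), or 1.64-fold lower.

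Calr (chr8:84841850-84846934) encodes calreticulin, a lectin chaperone that folds glycoproteins and buffers ER calcium. Its values were 98.5, 84.6, 120, 110 and 94.4 CPM in wild type hearts and 50.6, 68.1, 59.0, 72.6 and 64.9 CPM in CPT2H-KO hearts. The groups were separated, with the lowest value in CPT2H-KO replicate 1. Calr fell by 0.69 on the log2 scale (SE 0.12, edgeR adjusted p = 0.00138), from 101 ± 13.7 to 63.0 ± 8.53 CPM (SD, n = 5 each). Hsp90b1 (chr10:86690209-86705509), which encodes the ER Hsp90 chaperone GRP94, fell by 0.42 (SE 0.09, edgeR adjusted p = 0.00491). It measured 116, 125, 164, 138 and 135 CPM in wild type hearts against 92.4, 102, 98.5, 105 and 108 CPM in CPT2H-KO hearts. Again no CPT2H-KO heart reached the wild type range. Annotated transcripts on the opposite strand (1810014B01Rik) and on the same strand (Gm15344) overlap Hsp90b1, so its counts may include reads of these, since the labels do not state how strand was treated in counting.

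Folding enzymes and cochaperones were less uniform. Creld2 (chr15:88819646-88826683), a protein disulfide isomerase-like protein induced by ER stress, was near the threshold at low levels. It measured 3.93, 3.66, 5.08, 4.27 and 3.67 CPM in wild type hearts and 2.77, 3.46, 3.15, 3.51 and 3.37 CPM in CPT2H-KO hearts. The groups were separated by a narrow gap, with a log2 difference of -0.34 (SE 0.11, edgeR adjusted p = 0.0374). That call was kept in 8 of 19 alternative settings, with log2 fold changes of -0.60 to -0.26 across them. It was lost when wild type replicate 1, 3 or 4, or CPT2H-KO replicate 1, 2, 3 or 5, was left out, with the replicate block, with the atrial covariate, with the Y-linked term and with only the CPT2H-KO hearts that hold atrial transcripts.

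Sdf2l1 (chr16:17130138-17132383), an ER luminal partner of BiP cochaperones, was the least abundant of the 10 and had the lowest fold change. It measured 1.55, 1.06, 2.17, 2.24 and 1.42 CPM in wild type hearts and 0.316, 0.877, 1.10, 1.29 and 0.878 CPM in CPT2H-KO hearts. Wild type replicate 2 lay within the CPT2H-KO range, and CPT2H-KO replicate 1 lay far below the rest with 16 counts. The log2 difference was -0.92 (SE 0.32, edgeR adjusted p = 0.0450). The call was kept in 10 of 19 alternative settings and was lost without wild type replicate 1, 3, 4 or 5 or without CPT2H-KO replicate 2, 3 or 5, with the atrial covariate and with the term for Y-linked transcripts. The Y-linked term left 5 of the 10 genes called, without Sdf2l1 and Creld2.

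Pdia4 (chr6:47796141-47813430), which encodes the disulfide isomerase ERp72, was not called. Its values overlapped, at 15.5, 14.0, 17.9, 19.5 and 13.4 CPM in wild type hearts and 9.50, 15.7, 12.8, 16.4 and 12.7 CPM in CPT2H-KO hearts (log2 fold change -0.26, SE 0.15, edgeR adjusted p = 0.210). Dnajb9 (chr12:44205559-44210326) encodes ERdj4, a J-domain cochaperone of BiP that represses IRE1. It measured 10.1, 10.0, 10.1, 6.93 and 8.82 CPM in wild type hearts and 9.64, 7.48, 7.97, 7.58 and 10.4 CPM in CPT2H-KO hearts. These ranges nearly coincide, and the log2 fold change of -0.09 (SE 0.13) was smaller than its error (edgeR adjusted p = 0.613).

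Herpud1 (chr8:94386438-94395377) encodes a membrane protein of ER-associated degradation, which returns misfolded proteins to the cytosol for the proteasome. It measured 134, 110, 93.1, 70.2 and 135 CPM in wild type hearts and 84.1, 62.3, 56.6, 57.5 and 77.7 CPM in CPT2H-KO hearts. Wild type replicate 4 fell within the CPT2H-KO range, so the groups overlapped. The group means were 108 ± 27.7 and 67.6 ± 12.5 CPM (SD, n = 5 each), with a log2 fold change of -0.68 (SE 0.18, edgeR adjusted p = 0.0152). The call was lost with the atrial covariate and with only the CPT2H-KO hearts that hold atrial transcripts. An antisense transcript, Gm15890, overlaps Herpud1 by 535 bases of annotation.

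Of the transcription factors, Xbp1 was called and Atf6 was not. Xbp1 (chr11:5520659-5525893) measured 26.9, 26.1, 38.4, 30.9 and 22.3 CPM in wild type hearts and 18.5, 19.2, 19.5, 20.4 and 24.3 CPM in CPT2H-KO hearts. The groups overlapped through CPT2H-KO replicate 5 and wild type replicate 5, and total Xbp1 fell by 0.51 on the log2 scale (SE 0.14, edgeR adjusted p = 0.0152). The call was lost with the atrial covariate and with only the CPT2H-KO hearts that hold atrial transcripts. Atf6 (chr1:170704674-170867771) measured 84.4, 84.3, 89.3, 78.3 and 95.7 CPM in wild type hearts. In CPT2H-KO hearts it measured 119, 98.9, 74.9, 82.7 and 101 CPM, on both sides of the wild type range. The log2 difference was 0.14 (SE 0.12, edgeR adjusted p = 0.375), and it turned to -0.12 when libraries were scaled by their totals alone.

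**Figure D3:**
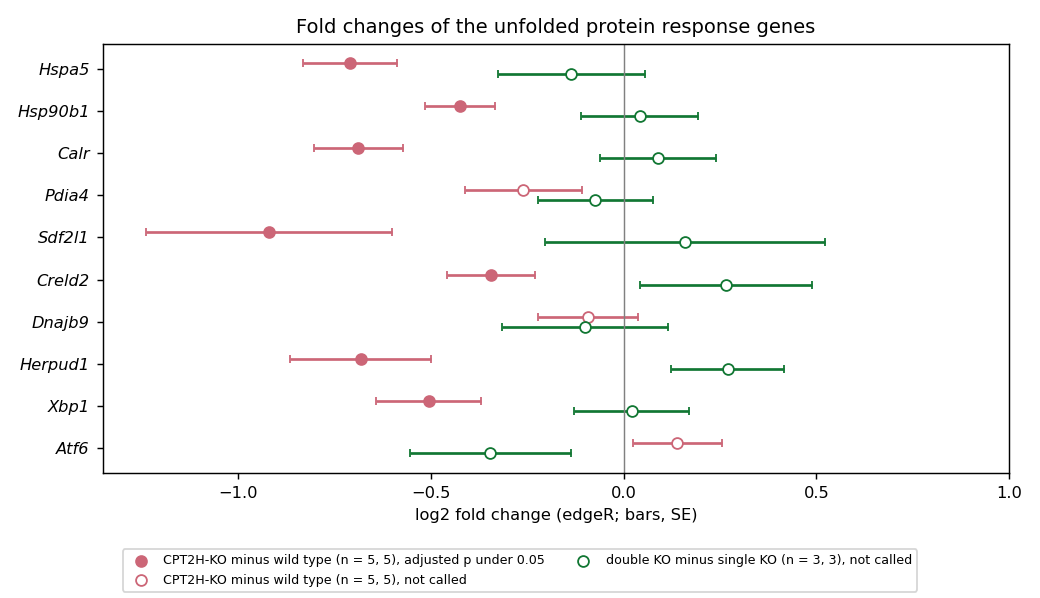
Log2 fold changes (points) with SE (bars) of the 10 genes, in CPT2H-KO against wild type hearts (red) and in double KO against single KO hearts (green); filled points passed an edgeR adjusted p of 0.05. The red points run from -0.92 for Sdf2l1 to 0.14 for Atf6, with 7 filled, and no green point is filled.

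Within the fit over all genes, 4.03% of genes had a lower fold change than Sdf2l1, 6.19% lower than Hspa5, 6.56% lower than Calr and 6.69% lower than Herpud1. The other genes were nearer the middle, from 10.9% for Xbp1 to 40.4% for Dnajb9, while 64.9% of genes had a lower fold change than Atf6. Single libraries did not stand at the same end for every gene. Wild type replicate 3 was the highest wild type heart for 6 genes, including Hspa5, Hsp90b1, Calr and Xbp1. CPT2H-KO replicate 1 was the lowest CPT2H-KO heart for 6 genes, including Calr, Pdia4 and Sdf2l1, yet the highest for Atf6 and Herpud1. Without wild type replicate 3, or without CPT2H-KO replicate 1, Hspa5, Hsp90b1, Calr, Xbp1 and Herpud1 were still called lower.

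Levels between genes were compared as CPM per kilobase of annotated exon. In wild type hearts Hspa5 led with 49.9 ± 9.92 CPM per kilobase, ahead of Herpud1 (46.5 ± 11.9), Calr (35.2 ± 4.77) and Hsp90b1 (33.6 ± 4.43; SD, n = 5 each). Each step was within 1 SD of the higher gene of the pair, although the step from Herpud1 to Calr exceeded the SD of Calr. A wide gap followed, since Xbp1 reached 11.8 CPM per kilobase in its highest wild type heart and Hsp90b1 28.9 in its lowest. Atf6 (9.36 ± 0.704) and Xbp1 (8.90 ± 1.88) were close, followed by Pdia4 (6.70 ± 1.08), Dnajb9 (3.61 ± 0.539), Creld2 (3.02 ± 0.431) and Sdf2l1 (1.52 ± 0.455). Ranges of Xbp1 and Pdia4 overlapped, as did those of Dnajb9 and Creld2. In CPT2H-KO hearts Hspa5 (30.5 ± 2.59) and Herpud1 (29.0 ± 5.36) again led, while Hsp90b1 (25.1 ± 1.52) stood above Calr (21.9 ± 2.96), with overlapping ranges. There Xbp1 (5.69 to 7.48 CPM per kilobase) no longer overlapped Atf6 (8.11 to 12.8), whereas in wild type hearts it did.

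Other genes of the pathway were followed in 9 lists by role. Of 11 sensors and regulators tested, 4 rose (Ern1, Eif2ak3, Creb3l2 and Mbtps2) and 1 fell (Nfyb), beside 16.7% higher and 17% lower over all genes. The list median was 0.08. Ern1, which encodes IRE1, measured 7.44 to 9.15 CPM in wild type hearts and 13.0 to 21.3 CPM in CPT2H-KO hearts. Its groups did not overlap, and it rose by 1.07 on the log2 scale (SE 0.15, edgeR adjusted p = 4.48e-04). Eif2ak3, which encodes PERK, rose from 5.11 ± 0.350 to 7.00 ± 0.803 CPM (SD, n = 5 each; log2 fold change 0.45, SE 0.09, edgeR adjusted p = 0.00316). Scaled by library totals alone, Ern1 remained called at 0.80, whereas Eif2ak3 (0.18, edgeR adjusted p = 0.248), Creb3l2 (0.32, edgeR adjusted p = 0.0941) and Mbtps2 (0.094, edgeR adjusted p = 0.570) were not, so 1 of the 4 rises was kept. The fall of Nfyb, a subunit of the CCAAT-binding factor NF-Y, was small (-0.23, edgeR adjusted p = 0.0496) and was called in 5 of 19 alternative settings.

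In the PERK and ATF4 arm 7 of 14 tested genes rose (Atf4, Atf5, Atf3, Trib3, Sesn2, Chac1 and Ppp1r15b), none fell and 7 were not called, beside 16.7% higher over all genes. The list median was 0.71, and Cebpb, not called, was at -0.10. Whether PERK led to these rises was not tested. Scaled by library totals, 6 were called higher and 1 lower. Atf4, the transcription factor translated when eIF2α is phosphorylated, measured 31.8, 28.2, 32.7, 26.7 and 35.5 CPM in wild type hearts and 60.9, 52.3, 45.1, 47.1 and 74.1 CPM in CPT2H-KO hearts. Every CPT2H-KO heart was above every wild type heart (log2 fold change 0.85, SE 0.14, edgeR adjusted p = 0.00108). Trib3, a pseudokinase target of ATF4, was at 0.694 to 0.928 CPM in wild type hearts and at 13.0, 2.47, 2.52, 2.70 and 6.69 CPM in the CPT2H-KO replicates (log2 fold change 2.76, SE 0.47, edgeR adjusted p = 0.00146). Atf3, a stress-induced repressor singled out here after its values were seen, was high in CPT2H-KO replicates 1 and 5 (33.9 and 75.9 CPM) and at 3.41 to 6.24 CPM in the others, against 3.16 to 7.51 CPM in wild type hearts. These are also the CPT2H-KO replicates with atrial transcripts, and the part of these in the result was not tested. Ddit3, which encodes the pro-apoptotic factor CHOP, was not called (4.75 ± 1.11 and 5.70 ± 1.54 CPM, SD, n = 5 each; log2 fold change 0.28, edgeR adjusted p = 0.318).

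Of 15 ER chaperones outside the 10 genes, 6 fell (Canx, Hyou1, Manf, Cdnf, Sdf2 and Dnajb11), 1 rose (Sec63) and 8 were not called, beside 17% lower and 16.7% higher over all genes. The list median was -0.24, and 3 were called lower with the atrial covariate. Canx, which encodes the membrane lectin chaperone calnexin, fell from 163 ± 11.5 to 122 ± 5.04 CPM (SD, n = 5 each; log2 fold change -0.42, SE 0.06, edgeR adjusted p = 7.83e-04), without overlap. The related secreted factors Manf and Cdnf fell by 0.76 and 0.82 on the log2 scale. Manf was not called with the atrial covariate or with only the CPT2H-KO hearts that hold atrial transcripts. Sec63, the J-domain protein of the translocon, rose by 0.56 (edgeR adjusted p = 0.00732) but was not called when scaled by library totals (0.28, edgeR adjusted p = 0.0651).

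Oxidative folding genes moved both ways. Of 16 tested, 3 fell (Tmx1, Tmx4 and Pdia6) and 4 rose (Qsox1, Pdia5, Txndc5 and Ero1a), beside 17% lower and 16.7% higher over all genes. The list median was -0.0070, beside -0.0073 over all genes. Tmx1, a membrane-bound thioredoxin-like isomerase, had the largest fall among all the pathway genes tested, from 34.8 ± 4.98 to 12.4 ± 1.98 CPM (SD, n = 5 each; log2 fold change -1.49, SE 0.13, edgeR adjusted p = 1.95e-05). Pdia6, a luminal disulfide isomerase, fell by 0.64 (edgeR adjusted p = 0.00197). Qsox1, a sulfhydryl oxidase, rose by 0.93 (edgeR adjusted p = 0.00987).

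In ER-associated degradation 3 of 20 tested genes fell (Derl1, Derl2 and Selenos) and 2 rose (Nploc4 and Ubxn4), with a median of 0.04. These counts are near or below the shares of all genes, 17% lower and 16.7% higher. Derl2 was called in 9 and Selenos in 10 of 19 alternative settings, and both rises were lost when scaled by library totals (edgeR adjusted p = 0.162 and 0.662). Translocation and signal peptide genes fell in 6 of 16 cases, beside 17% over all genes. The falls were led by Sec61g, the small translocon subunit (-0.42, edgeR adjusted p = 0.00403), and Srp14 (-0.33). Neither was called with the atrial covariate or with only the CPT2H-KO hearts that hold atrial transcripts. Sec61a1, the channel subunit, rose (0.29, edgeR adjusted p = 0.0162) but was not called when scaled by library totals (0.022, edgeR adjusted p = 0.895). The N-glycosylation list had 3 of 12 genes lower (Ost4, Rpn1 and Prkcsh) and 1 higher, Stt3a, at 0.20, which turned to -0.06 when scaled by library totals. Prkcsh was called in 5 and Rpn1 in 14 of 19 alternative settings, and 17% of all genes were lower. Among COPII and COPI transport genes 4 of 19 were lower (Lman1, Sar1a, Sar1b and Copb2) and 3 higher, near the shares of all genes. The higher genes include the cargo-binding subunit Sec24a (0.83, SE 0.10, edgeR adjusted p = 2.50e-04). Of 10 genes for calcium handling and cell death, 3 fell and none rose, beside 17% lower and 16.7% higher over all genes. Those that fell were Atp2a2, the sarcoplasmic reticulum calcium pump SERCA2 (5223 ± 277 to 3274 ± 395 CPM, SD, n = 5 each; -0.67, edgeR adjusted p = 4.58e-04), the BH3-only factor Bcl2l11 (-1.14) and Tmbim6 (-0.38). Bcl2l11 was not called with the atrial covariate or with only the CPT2H-KO hearts that hold atrial transcripts.

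**Figure D4:**
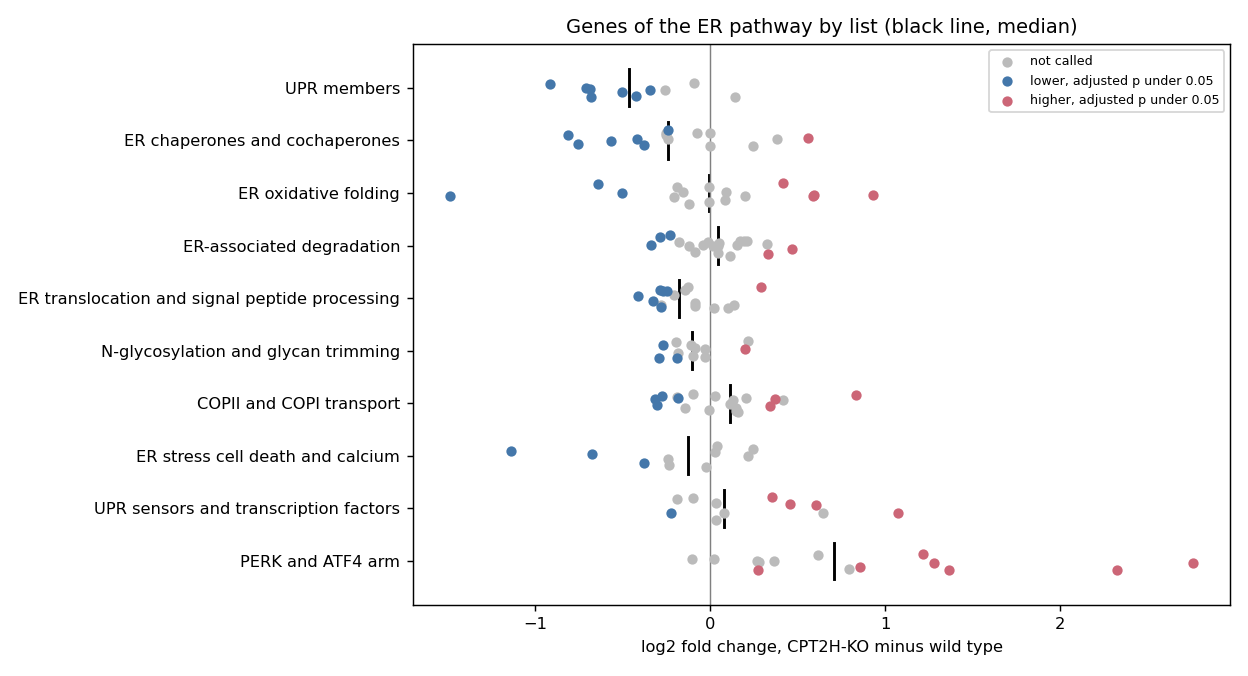
Log2 fold changes in CPT2H-KO against wild type hearts for each tested gene of the 10 lists (points; blue fell, red rose, grey not called; black line, median). The unfolded protein response genes have the lowest median, -0.46, and the PERK and ATF4 arm the highest, 0.71.

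Marker lists of cell types in the heart were measured in the same libraries, where 17% of all genes tested fell and 16.7% rose. Of 9 fibroblast markers, 4 rose and none fell, and their summed level was 767 to 1193 CPM in wild type hearts and 1120 to 2096 CPM in CPT2H-KO hearts. Cardiomyocyte markers summed to 49945 to 58427 CPM and 46801 to 54699 CPM, with 3 of 7 lower (Tnni3, Actc1 and Tnnt2) and 1 higher (Actn2). Of 7 endothelial markers 1 rose, and their sums were 347 to 435 CPM and 396 to 527 CPM. Among macrophage markers, which summed to 127 to 174 CPM and 109 to 159 CPM, 1 of 9 fell. None of 6 red blood cell and 5 mesothelial markers was called. Of 5 atrial markers 1 rose (Nppa), while the other 4 fold changes were below 0 and not called, with a list median of -1.10. No marker of these lists was at 0 in any library of the first table. Their part in the fall of the ER genes was not tested. Atrial markers were compared directly, since their level can be entered as a covariate. With it, Hspa5, Hsp90b1 and Calr were still called lower, and Xbp1 (edgeR adjusted p = 0.167), Herpud1 (0.135), Creld2 and Sdf2l1 were not. When only the 2 CPT2H-KO hearts with atrial transcripts were set against the 5 wild type hearts, Hspa5, Calr and Sdf2l1 were called lower and Atf6 higher (0.34, edgeR adjusted p = 0.0441). Hsp90b1 then missed the threshold (edgeR adjusted p = 0.0520).

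Loss of USP30 in hearts that lack CPT2 left no called change among the 10 genes. In the double KO against single KO comparison, 0 of the 10 passed an edgeR adjusted p of 0.05, as did 0% of the 12997 genes tested, and 0 of the 10 had an unadjusted p below 0.05, against 7.25% of all genes (942). DESeq2 called 113 genes and none of the 10. Their median log2 fold change was 0.03, beside 0.0027 over all genes. Groups did not overlap for 1 of the 10, Herpud1, while 11.8% of all genes were separated in either direction. With 3 hearts a group, a gene that misses the threshold is not shown to be equal.

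Herpud1 measured 212, 224 and 204 CPM in single KO hearts and 226, 288 and 258 CPM in double KO hearts. Each double KO heart was above each single KO heart, by a narrow margin for replicate 1, and the log2 difference was 0.27 (SE 0.15, edgeR adjusted p = 0.780). Hspa5 measured 321, 306 and 367 CPM against 226, 364 and 314 CPM, with the lowest value in double KO replicate 1 (-0.14, SE 0.19). Calr was at 252, 226 and 210 CPM against 275, 227 and 228 CPM (0.09, SE 0.15). Hsp90b1 was at 263, 207 and 261 CPM against 241, 266 and 244 CPM (0.04, SE 0.15). For all 3 chaperones the double KO values fell on both sides of at least 1 single KO value.

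Xbp1 measured 66.4, 54.1 and 62.0 CPM in single KO hearts and 66.2, 52.9 and 66.1 CPM in double KO hearts (log2 difference 0.02, SE 0.15). Atf6 had the lowest difference of the 10, -0.35 (SE 0.21, edgeR adjusted p = 0.797), with 140, 176 and 169 CPM against 88.5, 147 and 146 CPM. Only double KO replicate 1 lay below all 3 single KO hearts for Atf6. Creld2 was at 10.2, 10.2 and 6.87 CPM against 12.7, 8.86 and 11.3 CPM (0.27, SE 0.22). Sdf2l1 was at 2.60, 2.25 and 1.92 CPM against 3.73, 2.07 and 1.78 CPM, and its difference of 0.16 (SE 0.36) turned to -0.23 without double KO replicate 1. Pdia4 (25.5 to 32.4 CPM against 25.6 to 29.8 CPM) and Dnajb9 (23.9 to 35.4 CPM against 19.6 to 31.3 CPM) overlapped throughout.

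**Figure D5:**
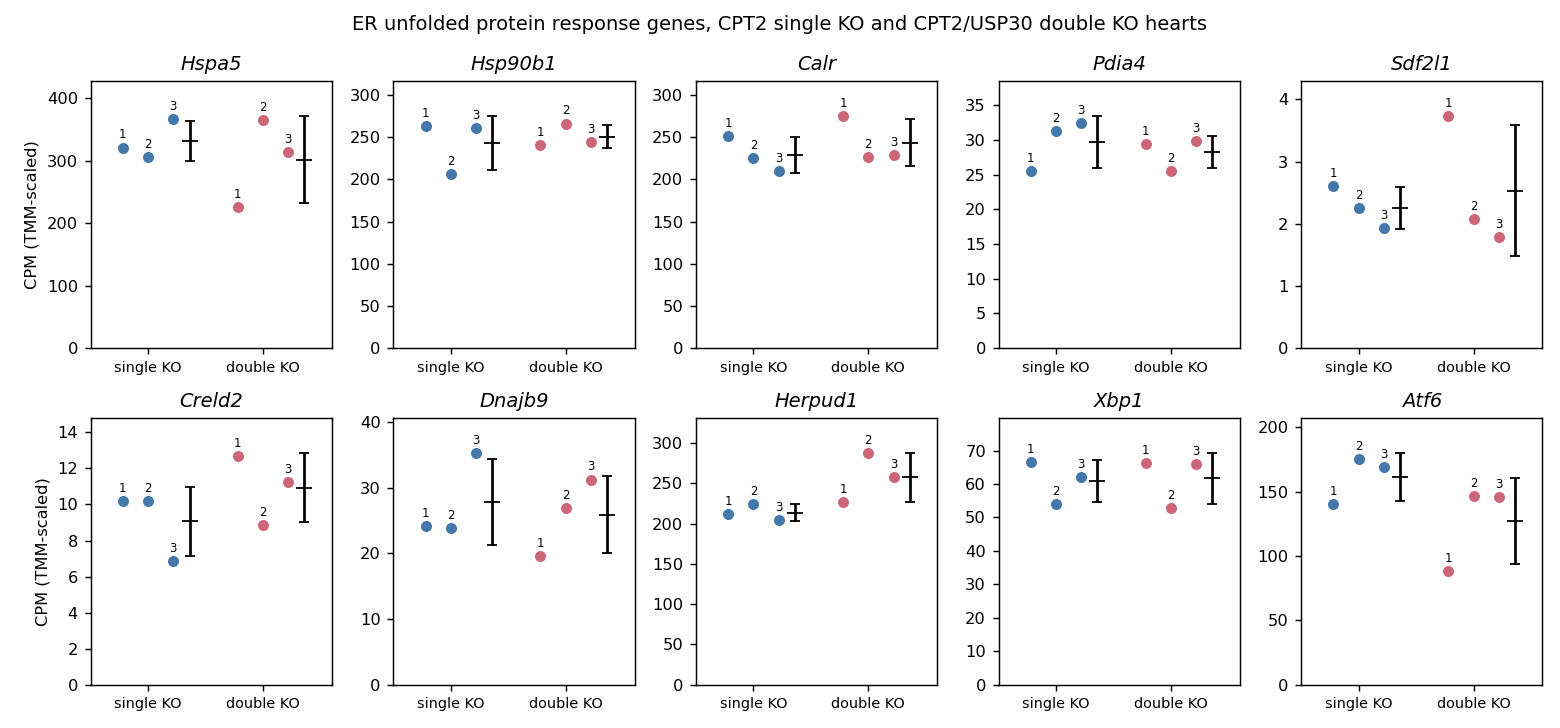
CPM of the 10 genes in CPT2 single KO (blue) and CPT2/USP30 double KO (red) hearts, 1 point per library with its replicate number; black marks are mean ± SD (n = 3 each). The groups overlap for each gene but Herpud1, whose double KO points (226 to 288) lie above the single KO points (204 to 224).

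Double KO replicate 1 was the lowest double KO heart for 5 genes (Hspa5, Hsp90b1, Herpud1, Dnajb9 and Atf6) and the highest for 4 (Calr, Creld2, Sdf2l1 and Xbp1). None of the 9 pathway lists had a called gene in this comparison. The calcium and cell death list summed to 4191 CPM in double KO replicate 1, beside 12195 and 11974 CPM in replicates 2 and 3. Single KO hearts held 8628 to 10418 CPM. Leaving out double KO replicate 1 gave 114 called genes, none of them among the 10, so the count over all genes depended on that library. Atf4 measured 130 ± 24.8 CPM in the single KO group and 142 ± 24.5 CPM in the double KO group (SD, n = 3 each), and Ern1 17.8 ± 4.69 and 15.4 ± 6.26 CPM. Per kilobase of exon, the order in single KO hearts was led by Herpud1 (91.5 ± 4.37), Calr (79.5 ± 7.33), Hspa5 (78.3 ± 7.51) and Hsp90b1 (60.4 ± 7.89; SD, n = 3 each). Xbp1 (18.7 ± 1.92) and Atf6 (17.5 ± 2.04) followed and did not differ beyond their spread, and Sdf2l1 was again last (2.04 ± 0.306). Fibroblast markers summed to 2423 to 3449 CPM in the single KO group and 2623 to 4618 CPM in the double KO group, and endothelial markers to 1366 to 1509 CPM and 1066 to 1238 CPM. Red blood cell markers summed to 8129 to 10042 CPM and 4555 to 7763 CPM, with 6 of 6 fold changes below 0. Macrophage markers summed to 197 to 365 CPM and 310 to 471 CPM (9 of 9 above 0), and mesothelial markers to 8.98 to 25.1 CPM and 17.7 to 95.7 CPM (5 of 5 above 0). Cardiomyocyte markers summed to 67040 to 74572 CPM and 62428 to 94705 CPM, and atrial markers to 1190 to 2743 CPM and 1270 to 7459 CPM. No marker was called. Their part in these values was not tested. With the atrial covariate none of the 10 genes was called. The same held with the term for Y-linked transcripts, which were nearly absent from every double KO heart.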

How the data were processed

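The deposited data are 2 tables of counts, in which the authors give unnormalized whole numbers of reads for each gene. Per the labels' protocols, RNA was column-purified and DNase-treated, ribosomal RNA was removed, and TruSeq stranded libraries were prepared. The submitters' processing notes name bcl2fastq, HISAT2, mm10 and DESeq2 1.42.0. How reads were assigned to genes, and whether by strand, is not stated there, which leaves overlapping and antisense genes uncertain. The first table holds no row with a total under 151 counts. In the second, 1 row without a gene name, at 0 counts in each library, was left out. Groups came from sample titles. The labels do not tie libraries to litters. The p-values weigh each group difference only against the spread between these libraries, estimated with the help of all genes.

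Each table was fitted separately with edgeR 4.0.16 in R 4.3.3: filterByExpr, TMM scaling and the quasi-likelihood F test. P-values were adjusted by Benjamini-Hochberg over all genes tested, with a threshold of 0.05. SE was derived as log2 fold change over root F, and CPM uses TMM-scaled library sizes. All 10 genes passed the filter in both tables. The fit was tested on simulated data. Exon lengths and positions are from GENCODE M21 (GRCm38), and promoters from RefSeq (GRCm38.p6). Alternatives covered scaling by library totals or RLE factors, no filter, no mitochondrially encoded genes (first table), a replicate block, an atrial covariate (mean log2 CPM of Myl7, Myl4 and Sln, pseudocount 0.5), a term for Y-linked transcripts (summed CPM above 5), DESeq2 1.42.0 and leaving out single libraries. The comparison restricted to CPT2H-KO hearts with atrial transcripts was added after seeing the data. The 10 genes and the pathway and marker lists were chosen with earlier results of these data known. Named from each other list were up to 4 genes with the smallest p and the largest change each way, besides Ern1, Eif2ak3, Atf4 and Ddit3; other genes are named only to identify a count. No pair of libraries within a group was close enough to be a duplicate (chi-square per gene of 10.7 or more).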

Additional observations from a re-analysis of the deposited data

Results flagged for a closer look

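Hspa5 in CPT2H-KO replicate 5 stood apart from the other 4 hearts of its group, at 148 CPM against 121 to 128 CPM, a gap larger than Dixon's 95% limit for 5 values. It remained below the lowest wild type heart (179 CPM). The rule was applied to 20 sets of values, the 10 genes in the wild type and in the CPT2H-KO group, and chance flags about 1 in 20. Without that library Hspa5 was still called lower.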

How the results depend on the processing

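Hspa5 and Calr were called lower in CPT2H-KO hearts in all 19 alternatives, with log2 fold changes of -0.98 to -0.57 and -0.94 to -0.62. Hsp90b1 was called in 18 of 19, Xbp1 and Herpud1 in 17 of 19. The count of the 10 genes called lower was 5 to 7 when 1 library was left out and 6 with a replicate block, which lost Creld2. Same-numbered libraries correlated at -0.05 to 0.26 in the first table and -0.20 to 0.18 in the second. These few values cannot decide whether same-numbered libraries share a litter or day, which the labels do not state. With the atrial covariate 3 of the 10 were called lower, and 2856 genes in all. With only the 2 CPT2H-KO hearts with atrial transcripts, 3 were called lower and 1 higher. Scaling by library totals moved the median of all genes to -0.27 and that of the 10 genes to -0.73, and split the called genes into 14.6% higher and 85.4% lower, against 49.6% and 50.4% with TMM; 8 of the 10 were then called lower, Dnajb9 being added. It also turned Atf6 to -0.12, Stt3a to -0.064, Stt3b to -0.056 and Bax to -0.0065. Dnajb9 turned to 0.11 with the atrial covariate and 0.12 with the 2 atrial hearts only, and Cebpb to 0.043 and 0.10. In double against single KO hearts the count of called genes was 1 with the replicate block, 25 with the atrial covariate, 113 with DESeq2 and 0 to 114 when 1 library was left out, the highest without double KO replicate 1 and 4 without single KO replicate 3. None of the 10 genes was called in any of these. Leaving out 1 library moved Sdf2l1 between -0.23 and 0.35 and Hyou1 between -0.38 and 0.0045, both turning without double KO replicate 1. With the atrial covariate, Chac1 turned to -0.38, Tmx1 to 0.17 and Manf to 0.075. The cause of these changes was not tested. Sdf2l1, with 16 to 348 counts per library, is the gene most limited by depth.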

Other observations

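Genes outside the 10 whose promoter window holds an ERSE were looked up after the values were known, and they gave no uniform direction. Of the 12 that were tested, 3 fell in CPT2H-KO hearts (Pdia6, Canx and Spats2l, at -0.64, -0.42 and -0.39 on the log2 scale), 25.0% beside 17% of all genes, and 2 rose (Acacb and Hnrnpa3, at 0.63 and 0.68). Acacb encodes an acetyl-CoA carboxylase of the outer mitochondrial membrane. The ERAD ligase gene Syvn1, which also holds an ERSE, was not called (0.33, edgeR adjusted p = 0.0836). Of 7 further tested genes with an ERSE-II, Dnajb11 and Nucb1 fell (-0.24 and -0.21), 28.6% beside 17% of all genes, and Rcl1 rose (0.34). Of 320 further tested genes with a UPRE core, 43 fell (13.4%, beside 17% of all genes) and 76 rose. Over all genes tested, 16.7% rose.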
